A study of Mus musculus with 4 samples.

Results

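Cytosolic ribosomal protein genes encode the proteins that, together with the ribosomal RNAs, form the 2 subunits of the ribosome outside mitochondria. They were taken from the deposited expression table as the loci whose RefSeq identifiers map to a single symbol of the Rpl or Rps families (with Rplp0, Rplp1, Rplp2 and Rpsa), leaving out kinases and pseudogenes and requiring an average of 1 FPKM or more across the 4 libraries. FPKM counts fragments per kilobase of a transcript and is scaled to the depth of the library. Of 82 loci with a matching symbol, Rps4l was left out as a pseudogene in RefSeq and Rpl3l because its mean was 0.246 FPKM. This left 80 genes of 23697 loci, 49 for the large and 31 for the small subunit, and the lowest of them, Rpl29, had a mean of 3.92 FPKM. None of the 80 stood at 0 in any library.

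The cells were WW6 mouse embryonic stem cells, a line of mixed C57/B6J, 129/Sv and SJL background grown on gelatin without feeder cells in medium with leukemia inhibition factor. Control cells were transiently transfected with small interfering RNA against GFP, and knockdown cells with small interfering RNA against Kdm5b, a histone H3 lysine 4 demethylase. Each group has 2 libraries, replicates A and B, made from rRNA-depleted total RNA. Whether A and B were separate cultures is not given, so the p-values cover the variation among these libraries alone, and it may be technical.

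A ribosome needs its proteins in fixed proportions, and in mammals most of them come from a single active gene. Many of these genes also have processed pseudogenes, copies of the spliced mRNA inserted elsewhere in the genome. The mRNAs commonly begin with a cytosine followed by a run of pyrimidines, the terminal oligopyrimidine tract, through which mTOR signalling sets their translation. Embryonic stem cells divide fast and are known for high levels of ribosomal protein mRNA.

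The labels were checked on Kdm5b, at 99.7 (A) and 145 FPKM (B) in the controls and 22.7 (A) and 31.1 FPKM (B) in the knockdown libraries. From the steps between the lowest values, knockdown A had an estimated 76.0% of the depth of control B, and the other libraries lay between 98.8% and 102%. Of all 23697 loci, 11953 stood at 0 in knockdown A, against 8131 in control A, 8281 in control B and 8609 in knockdown B. All 8 embryonic stem cell markers (Pou5f1, Nanog and others) were present, at a summed 3438 to 4540 FPKM, and the 2 groups overlapped. Of these, Klf4 and Esrrb, both transcription factors of pluripotency, lay below both controls in the knockdown libraries, and none of the 8 passed the limma test described below. The 6 fibroblast markers summed to 9.17 and 2.92 FPKM in the controls and 0.258 and 1.55 FPKM in the knockdown libraries, with S100a4 at 0 in all 4 and Col3a1 at 0 in both knockdown libraries. The 6 primitive endoderm markers summed to 11.1 and 15.4 FPKM in the controls and 2.59 and 2.98 FPKM in the knockdown libraries, and Sox17, Sox7, Gata4 and Dab2 stood at 0 in knockdown A. The part of these low levels in any result below was not tested. Nor was the part that the larger number of loci at 0 in knockdown A has in these marker sums. In bulk RNA, fewer cells of a type and less RNA per cell cannot be told apart.

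The sequences that follow show whether the first coding bases of a ribosomal protein gene also occur in other annotated genes. The part of such sharing in the levels below was not tested. The sequences are the first 60 coding bases of 3 genes in GENCODE transcripts of the GRCm38 build, with the start codon in capitals. Rpl29 and Rps6 share this stretch exactly with other annotated genes, and Rpl8 does not.
Rpl29: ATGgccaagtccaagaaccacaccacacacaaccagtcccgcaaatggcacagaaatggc
Rps6: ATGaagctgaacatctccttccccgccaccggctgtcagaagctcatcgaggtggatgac
Rpl8: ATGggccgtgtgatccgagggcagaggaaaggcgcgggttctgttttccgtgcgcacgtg

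The Rpl29 stretch was found in 14 other annotated genes, 11 of them pseudogenes. The Rps6 stretch was found in 5 others, all pseudogenes. No other annotated gene held the stretch of Rpl8. Rpl29 lies at mm9 chr9:106331869-106333898, Rps6 at chr4:86500002-86503271 and Rpl8 at chr15:76734500-76736748.

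Levels of the ribosomal protein genes spread over more than 4 orders of magnitude. The median of the 80 mean levels was 204 FPKM, against 12.3 FPKM over all 11784 loci tested, and 57 of the 80 were among the highest 20% of tested loci. By mean level, 4 genes lay under 10 FPKM, 29 from 10 to under 100, 32 from 100 to under 1000, and 15 at 1000 or more. The median was 164 FPKM for the large subunit and 363 FPKM for the small. FPKM is a level per transcript length, which takes length into account across genes, but a value is unstable where the transcript is short. Comparison across genes is also limited by shared intervals and near-identical copies, described below, whose part in the levels was not tested.

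Rpl13a, a large subunit protein whose introns hold small nucleolar RNA (snoRNA) genes, stood far above the rest. It measured 242320 (A) and 214766 FPKM (B) in the controls and 318208 (A) and 274972 FPKM (B) in the knockdown libraries (mm9 chr7:52380932-52384115). In the sentences that follow, paired values give replicate A first. Both knockdown libraries were above both controls. The table gives the same interval to Snord32a, listed at 129208 to 270719 FPKM, and to Snord34 and Snord35a, so fragments of the snoRNAs and of their host may not have been separated. Rpl13a alone made up 27.6% to 34.1% of the FPKM summed over tested loci other than small noncoding RNA genes. Across the family, 29 genes shared an interval with another locus, 21 of them with a snoRNA locus.

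After Rpl13a came Rpl8, near the peptidyl transferase centre, with 3073 and 3525 FPKM in the controls and 3741 and 3082 FPKM in the knockdown libraries. Rpl32, a large subunit surface protein, measured 2654, 3450, 3698 and 3283 FPKM in the same order. Rps26, at the mRNA exit channel of the small subunit, measured 2786, 2481, 1832 and 2797 FPKM, and Rpl4, which reaches into the peptide tunnel, measured 2011, 2341, 2203 and 2082 FPKM. In these 4 genes the groups overlapped. At the other end stood Rpl29 (1.36 to 10.7 FPKM), Rpl10l (0.368 to 10.3 FPKM), Rps12 (1.91 to 12.1 FPKM), Rpl17 (4.33 to 13.7 FPKM) and Rpl37 (8.83 to 13.2 FPKM). Rps12 and Rpl17 belong to the same particle as Rpl8, of which every ribosome holds a single copy, yet their listed levels were lower by more than 2 orders of magnitude.

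**Figure D1:**
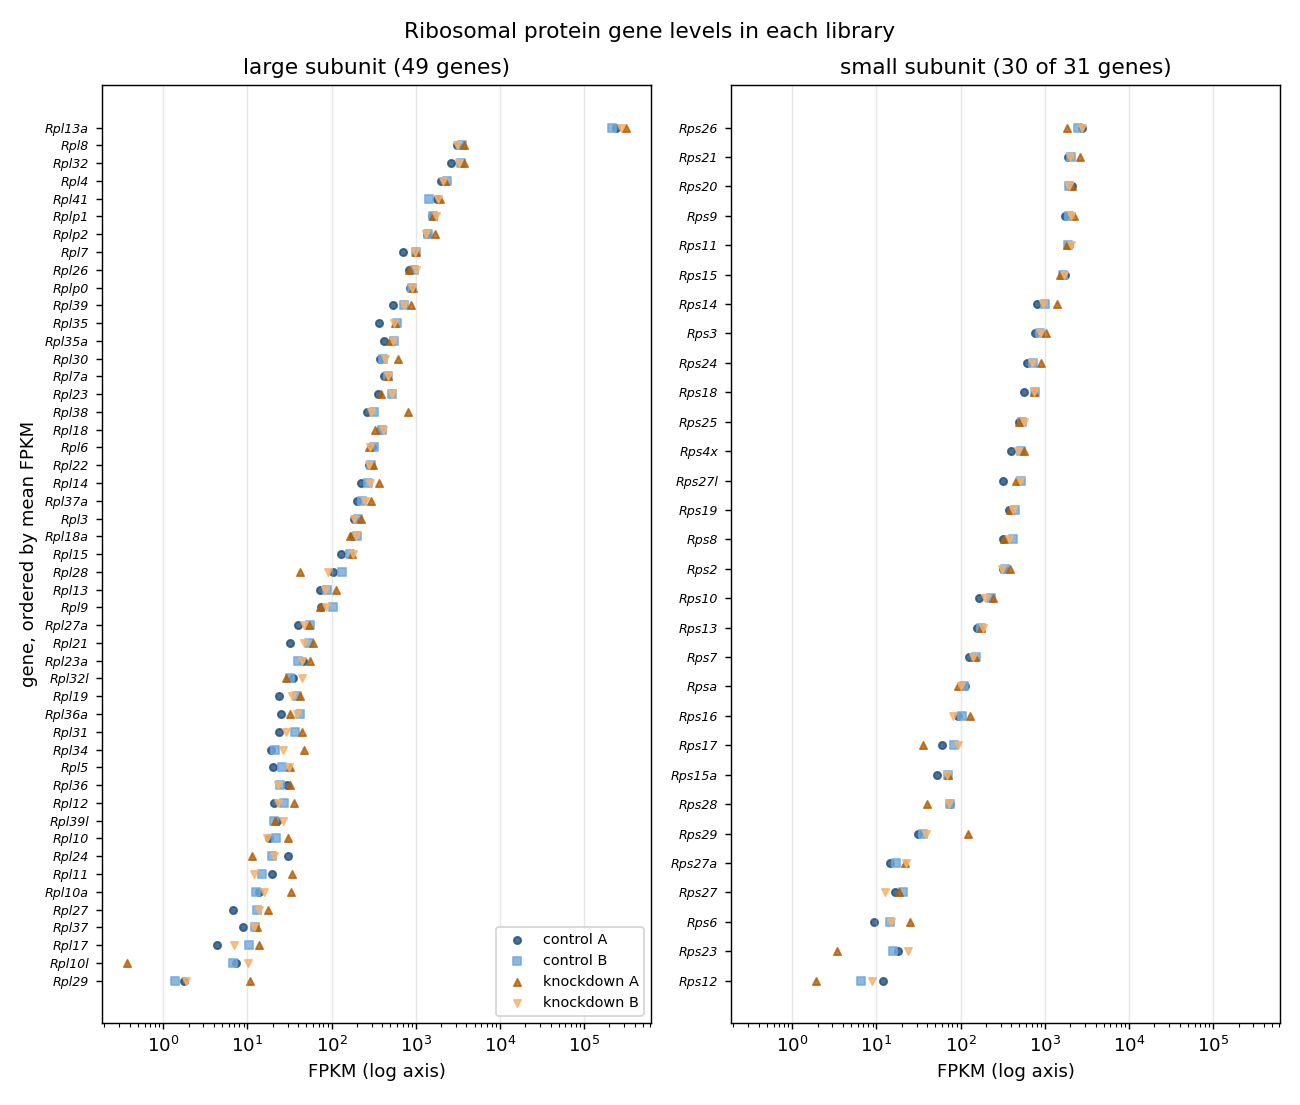
FPKM (log axis) of the 49 large subunit genes (left) and 30 of the 31 small subunit genes (right) in each of the 4 libraries, ordered by mean level. Rpl13a lies near 262567 FPKM on average and the next gene near 3356 FPKM, and the points of knockdown A stand apart from the other 3 libraries mainly among low genes.

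Levels differed with the presence of near-identical copies. Copies were counted as other annotated genes that match at least 90% of the coding sequence at 98% identity or more, for the 79 genes with a matched GENCODE transcript (all but Rpl32l). The 14 genes with no such copy had a median level of 1786 FPKM, and 9 of them reached 1000 FPKM. The 42 genes whose closest copy was 98% to under 100% identical had a median of 317 FPKM. The 23 whose closest copy was 100% identical over the matched bases had a median of 49.5 FPKM, and 16 of them lay under 100 FPKM. The match need cover only 90% of the coding sequence. For Rps10 the copy was RPS10-NUDT3, an annotated gene whose name includes Rps10 itself. The exceptions without a close copy but under 100 FPKM were Rpl10l and Rpl39l, themselves copies expressed mainly in testis.

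Counted by level, the 15 genes at 1000 FPKM or more had a median of 0 such copies, and 6 of them had any. Of the 32 genes from 100 to under 1000 FPKM 29 had at least 1, and of the 32 under 100 FPKM 30 did, both with a median of 3, so these classes were alike in this count and the highest class differed. The median share of 50-base stretches of the transcript that also occur in another annotated gene was 33.0%, 55.7% and 71.0% from the highest to the lowest of the 3 level classes. Over the 79 genes, Spearman's rho between mean level and identity of the closest copy was -0.51, and between mean level and transcript length -0.02. These are descriptions across genes, which share the same 4 libraries. The sources used here do not give how fragments that match several places were assigned, and its part in these levels was not tested. Outside the family, Gapdh, a glycolytic gene, stood at 15.0 to 25.2 FPKM and Actb, a cytoskeletal actin gene, at 2035 to 2606 FPKM. Copies were not counted for these genes, which were added after their values were seen.

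**Figure D2:**
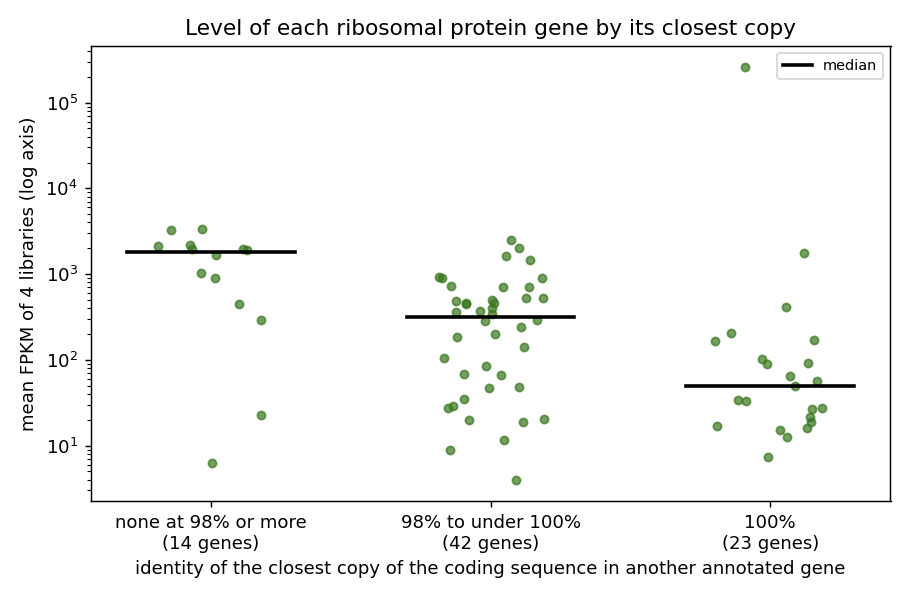
Mean FPKM of the 4 libraries (log axis) for 79 ribosomal protein genes, grouped by the identity of the closest copy of the coding sequence in another annotated gene, with the median as a bar. The medians are 1786, 317 and 49.5 FPKM from left to right, and Rpl13a is the point at the top of the right column.

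Several ribosomal proteins have a second, diverged gene, and the coding bases show how far the members of a pair differ. In the first 60 coding bases of Rps27, a zinc finger protein of the small subunit, and of its paralog Rps27l, which p53 is known to activate, capitals mark the 18 positions that differ. The first 60 coding bases of Rpl39, a protein of the exit tunnel, and Rpl39l differ at 4.
Rps27: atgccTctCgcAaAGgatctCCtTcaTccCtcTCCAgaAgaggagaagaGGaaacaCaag
Rps27l: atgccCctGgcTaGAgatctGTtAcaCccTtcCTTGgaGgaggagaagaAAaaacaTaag
Rpl39: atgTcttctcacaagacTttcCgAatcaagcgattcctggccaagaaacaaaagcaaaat
Rpl39l: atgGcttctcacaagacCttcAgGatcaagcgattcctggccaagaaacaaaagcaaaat

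Over the whole coding sequence Rps27 and Rps27l were 76.2% identical (252 bases), Rpl39 and Rpl39l 85.0% (153 bases), and Rpl10 and its testis copy Rpl10l 84.7% (642 bases). Rps27l measured 316 and 516 FPKM in the controls and 461 and 508 FPKM in the knockdown libraries. Rps27 measured 16.5, 20.4, 18.6 and 12.6 FPKM, so the paralog stood above it in every library. Rps27 has 2 copies of at least 98% identity and Rps27l has 0. Rpl39 (535, 716, 890 and 719 FPKM) stood above Rpl39l (22.5, 20.7, 21.0 and 26.5 FPKM) in every library. Rpl10, on the X chromosome near the tRNA sites, measured 18.3, 21.8, 30.0 and 17.0 FPKM, above Rpl10l (7.43, 6.76, 0.368 and 10.3 FPKM) in every library.

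Among pairs with a gene outside the naming rule, Rpl22, an RNA-binding large subunit protein, stood at 278 to 311 FPKM and Rpl22l1 at 58.1 to 112 FPKM. Rpl7 measured 703 to 1008 FPKM and Rpl7l1, a ribosome assembly factor, 70.7 to 112 FPKM. The X-linked Rpl36a measured 25.1 to 41.8 FPKM and its autosomal copy Rpl36al 122 to 262 FPKM, higher in every library. Rpl36a has 1 copy of at least 98% identity, and copies were not counted for Rpl36al. Rpl3, which shapes the peptidyl transferase centre, measured 186 to 223 FPKM, while the muscle paralog Rpl3l lay between 0 and 0.395 FPKM. Rps4x, an X-linked small subunit gene, measured 394 to 563 FPKM and the pseudogene Rps4l 269 to 460 FPKM.

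The main comparison asked whether the knockdown changed mRNA of the ribosomal proteins, and no gene of the family passed the test. Kdm5b itself, at a log2 fold change of -2.14 (standard error 0.30), did not pass either, with a limma adjusted p of 0.562. Failing this test therefore does not show that a gene was unchanged. At a limma adjusted p under 0.05, 0 of 80 were called, against 0.0339% of all tested loci (4 of 11784). At an unadjusted limma p under 0.05 the count was also 0, against 2.46% of tested loci, and the limma adjusted p-values of the family ran from 0.918 to 0.999. The 95% interval of the log2 fold change lay within 1 unit of 0, a 2-fold change either way, for 53 of the 80 (66.3%) and for 32.8% of tested loci. For 10 it lay within a 1.5-fold change. The other 27 intervals reach beyond 2-fold, so a change of that size is not excluded in those genes. The intervals do not show which changes the adjusted test could call with 2 libraries a group.

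Most estimates were small and positive, in the values as deposited. The log2 fold change, on the log2(FPKM + 1) scale, was positive for 61 genes and negative for 19, and 47.1% of tested loci were positive. Its median was 0.13 over the family and -0.03 over all tested loci, but -0.05 and -0.20 when libraries were rescaled to an equal sum of FPKM over tested loci other than small noncoding RNA genes, where 36 of the 80 were positive. That rescaling moved the median of all tested loci by more than 0.1, and the family's median stood 0.16 above it in the deposited values and 0.15 above it after rescaling. With Rpl13a left out of the sum the medians were 0.03 for the family and -0.13 for all tested loci, and 43 of the 80 were positive. The middle of the family spanned 0.02 to 0.28 (quartiles) against -0.36 to 0.24 for all tested loci, and the median over the highest 20% of tested loci by level was 0.07. Without control A the family's median was 0.00 and 40 of 80 genes were positive.

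Both knockdown libraries lay above both controls for 18 of the 80 genes (22.5%), against 15.0% of tested loci. Both lay below both controls for 4 genes (Rpl28, Rpl6, Rps28 and Rpsa), 5% of the family against 16.9% of tested loci. In the other 58 genes the groups overlapped. After the rescaling to an equal sum the counts were 5 above and 15 below, against 6.37% and 29.7% of tested loci, so the larger number of genes above does not hold under that scaling, while the share below stayed under that of tested loci. With Rpl13a left out of that sum the counts were 7 above and 7 below, against 9.05% and 24.3% of tested loci. Leaving out a library makes separation easier for every locus. Without control A, 20 genes lay above and 19 below, against 27.1% and 30.4% of tested loci. Without control B the counts were 53 and 8, against 32.3% and 35.6%. Without knockdown A they were 31 and 13, against 29.1% and 29.5%, and without knockdown B 44 and 16, against 36.8% and 42.3%. With at least a 2-fold change as well, 2 genes were above (Rpl29 and Rps29; 1.37% of tested loci) and 0 below (3.9% of tested loci).

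**Figure D3:**
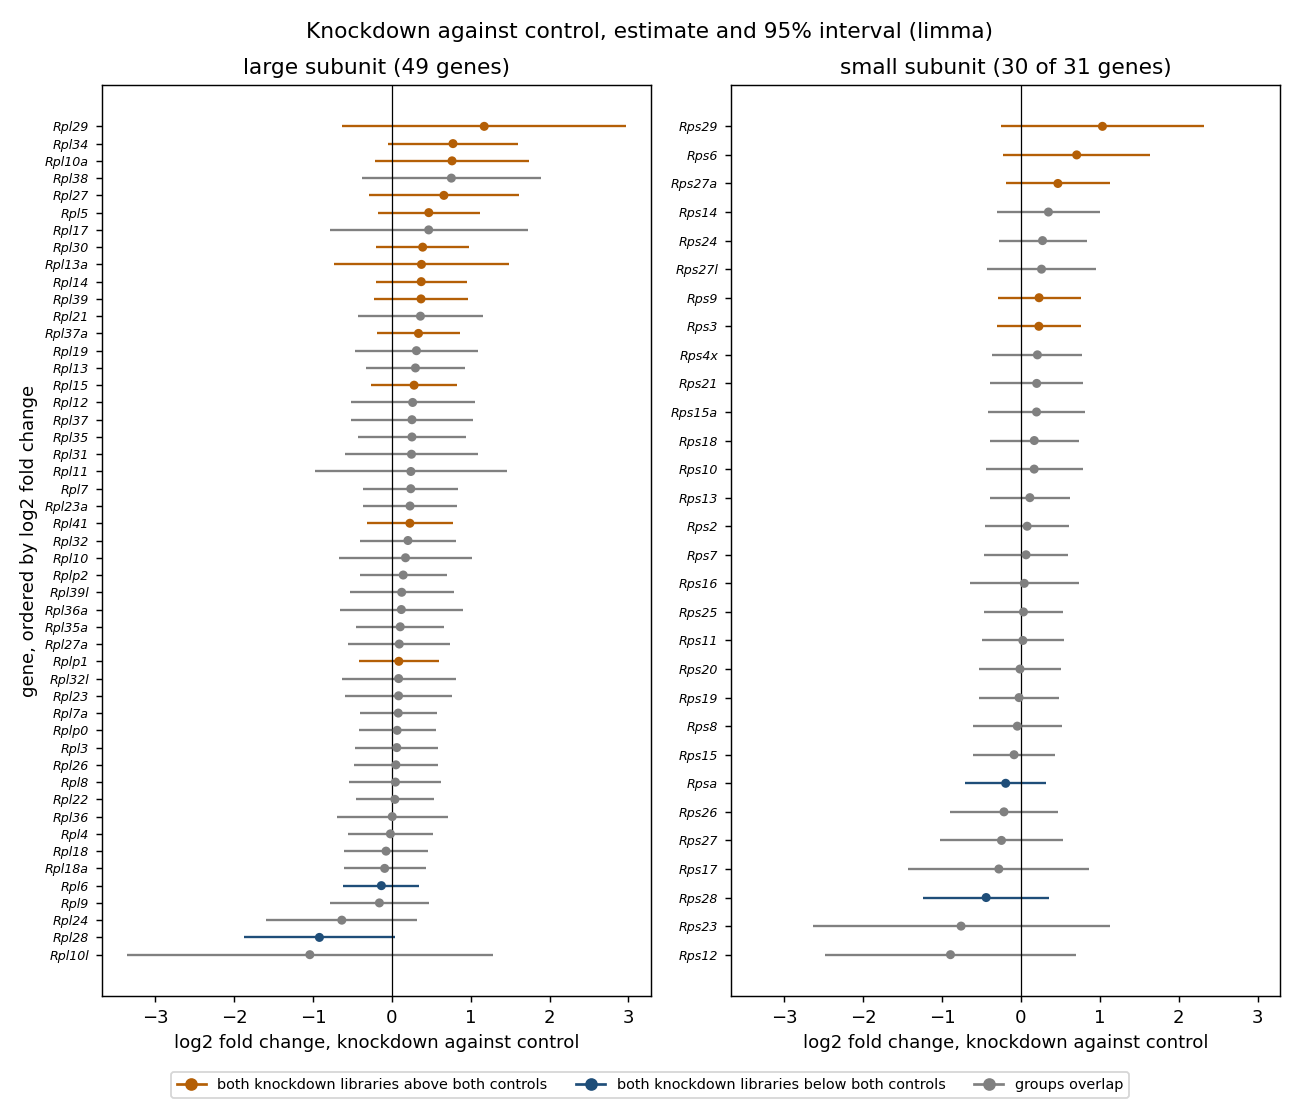
Log2 fold change of knockdown against control on the log2(FPKM + 1) scale, with the 95% interval from limma. The 49 large subunit genes are on the left and 30 of the 31 small subunit genes on the right. Colours show whether both knockdown libraries lay above both controls, both lay below them, or the groups overlapped. Over the whole family 61 of 80 estimates are positive in the deposited values. The count is 36 after rescaling to an equal sum and 43 with Rpl13a left out of that sum. Every interval includes 0.

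The summed level of the family, without Rpl13a, was 40086 and 44348 FPKM in the controls and 46844 and 44087 FPKM in the knockdown libraries. Control B and both knockdown libraries lay close together, knockdown B was below control B, and control A was the lowest. The means were 42217 ± 3014 FPKM (SD, n = 2) in the controls and 45466 ± 1950 FPKM (SD, n = 2) in the knockdown libraries, a ratio of 1.08. Control B exceeded control A by a factor of 1.11, so the difference between groups was within the spread of the controls. The ratio was 0.942 after rescaling to an equal sum and 0.998 when Rpl13a was left out of that sum. As a share of the FPKM of tested loci other than small noncoding RNA genes, both taken without Rpl13a, the family made up 7.01% and 7.89% in the controls and 7.63% and 7.24% in the knockdown libraries, and these ranges overlapped.

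Of the 4 largest positive estimates among large subunit genes, 3 belonged to genes under 100 FPKM (Rpl29, Rpl34 and Rpl10a) and 1 to a gene above the family's median level (Rpl38). Rpl29, a protein that mice can live without at reduced size, measured 1.78 and 1.36 FPKM in the controls and 10.7 and 1.85 FPKM in the knockdown libraries. Knockdown A was high and knockdown B lay just above the controls, and the log2 fold change of 1.17 (standard error 0.74) rests on an estimated 4.14 fragments in control A and 18.6 in knockdown A. Rpl34, a surface protein of the large subunit, measured 19.2 and 21.6 FPKM in the controls and 46.9 and 26.8 FPKM in the knockdown libraries, with both knockdown libraries above the controls. Its log2 fold change was 0.77 (standard error 0.34, limma unadjusted p = 0.0599, adjusted p = 0.918).

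Rpl10a, of the flexible L1 stalk, measured 13.7 and 12.5 FPKM in the controls and 33.1 and 15.7 FPKM in the knockdown libraries (log2 fold change 0.76, standard error 0.40). Rpl38, whose loss in mice alters translation of Hox mRNAs and the axial skeleton, measured 260 and 316 FPKM in the controls and 799 and 294 FPKM in the knockdown libraries (0.75, standard error 0.46). Knockdown A was high in both genes, while knockdown B lay just above the controls for Rpl10a and between them for Rpl38. Without knockdown A the log2 fold change of Rpl38 was 0.03.

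Negative estimates in the large subunit were led by Rpl10l (-1.04, standard error 0.95), which held about 1 estimated fragment in knockdown A and 23.9 to 35.9 in the other libraries. Rpl28, a large subunit protein with 3 copies of at least 98% identity, measured 105 and 133 FPKM in the controls and 42.0 and 91.6 FPKM in the knockdown libraries. Both knockdown libraries were below both controls, and the log2 fold change was -0.92 (standard error 0.39), with the smallest limma p of the family (unadjusted 0.0572, adjusted 0.918). Rpl24, at the subunit interface, measured 30.7 and 19.4 FPKM in the controls and 11.4 and 20.6 FPKM in the knockdown libraries, with knockdown A low and knockdown B between the controls. Its log2 fold change was -0.64 (standard error 0.39).

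In the small subunit the largest positive estimate was that of Rps29, a zinc-binding protein of the head, at 31.1 and 35.5 FPKM in the controls and 123 and 38.5 FPKM in the knockdown libraries. Knockdown A was the high library, and the log2 fold change was 1.03 (standard error 0.53). Rps6, the substrate of the S6 kinases, measured 9.29 and 14.4 FPKM in the controls and 25.3 and 15.0 FPKM in the knockdown libraries. Both knockdown libraries were above both controls, knockdown B by little, and the log2 fold change was 0.71 (standard error 0.38). Rps27a, made as a fusion with ubiquitin, measured 14.4 and 17.2 FPKM in the controls and 21.9 and 22.4 FPKM in the knockdown libraries, which lay closer together than those of Rps6 or Rps29. Its log2 fold change was 0.47 (standard error 0.27).

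On the negative side, Rps12, a head protein, measured 12.1 and 6.57 FPKM in the controls and 1.91 and 8.89 FPKM in the knockdown libraries (log2 fold change -0.89, standard error 0.65). Rps23, of the decoding centre, measured 17.9 and 15.7 FPKM in the controls and 3.41 and 23.9 FPKM in the knockdown libraries (-0.76, standard error 0.77). For both genes knockdown A was the lowest of the 4 libraries and knockdown B lay within or above the controls, and without knockdown A the value for Rps23 was 0.49. Rpsa, also known as the laminin receptor precursor, measured 111 and 111 FPKM in the controls and 92.5 and 102 FPKM in the knockdown libraries. Both were below both controls, by a log2 fold change of -0.19 (standard error 0.21). Rps19, the gene most often mutated in Diamond-Blackfan anaemia, measured 373, 444, 385 and 416 FPKM in the 4 libraries, with overlapping groups (-0.02, standard error 0.21).

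For the 5 genes with the highest levels, the log2 fold change was 0.37 for Rpl13a (standard error 0.46) but -0.23 under quantile normalization, which sets the libraries to 1 shared distribution of values. It was 0.04 for Rpl8, 0.20 for Rpl32, -0.02 for Rpl4 and -0.22 for Rps26 (standard errors 0.24, 0.25, 0.22 and 0.28), and Rpl8 and Rpl4 changed sign under quantile normalization. Among the paralog pairs, both knockdown libraries lay above both controls for Rpl39 (0.37, standard error 0.25), Rpl36al, Rpl7l1 and the pseudogene Rps4l, and groups overlapped in the others. The log2 fold change was -0.25 for Rps27 (standard error 0.32) and 0.26 for Rps27l (0.28). The values for Rpl10, Rpl39l, Rpl22, Rpl3 and Rpl36a lay between 0.04 and 0.17, and each turned negative after rescaling to an equal sum, while Rpl7 (0.24, standard error 0.25) and Rps4x (0.21, standard error 0.23) kept their sign under it.

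By position in the ribosome, the stalk that recruits elongation factors showed close replicates for Rplp0 and Rplp1. Rplp0, the stalk base, measured 852 and 913 FPKM in the controls and 939 and 907 FPKM in the knockdown libraries. Rplp1 measured 1560 and 1591 against 1601 and 1751 FPKM, and its partner Rplp2 measured 1348 and 1392 against 1707 and 1341 FPKM. Both knockdown libraries stood above both controls for Rplp1, the groups overlapped for the other 2, and for Rplp2 knockdown A stood above the other 3 libraries. The log2 fold changes were 0.07, 0.09 and 0.14 (standard errors 0.20, 0.21 and 0.23), and each turned negative after rescaling to an equal sum (-0.12, -0.10 and -0.05).

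Rpl5 and Rpl11 form the 5S RNA particle, which also binds Mdm2 when it is not built into ribosomes. Rpl5 measured 20.1 and 25.8 FPKM in the controls and 32.3 and 31.5 FPKM in the knockdown libraries (log2 fold change 0.47, standard error 0.26), with both knockdown libraries above both controls. Rpl11 measured 19.6 and 14.7 FPKM in the controls and 33.8 and 12.0 FPKM in the knockdown libraries, so its highest and its lowest values were both in the knockdown group (0.24, standard error 0.50).

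Of the 9 genes of the peptide exit ring and tunnel, 0 passed the test, 8 had positive estimates, and in Rpl39 alone both knockdown libraries were above both controls. Their median log2 fold change was 0.25 in the deposited values, 0.06 after rescaling to an equal sum and -0.05 without control A. Rpl17, at the tunnel exit, measured 4.33 and 10.5 FPKM in the controls and 13.7 and 6.96 FPKM in the knockdown libraries, so the groups overlapped (0.47, standard error 0.52). Of the 14 head genes of the small subunit 0 passed, 8 were positive, 3 were above (Rps29, Rps27a and Rps3) and 1 was below (Rps28), with a median of 0.03 and of -0.16 after rescaling. Of 9 listed genes mutated in Diamond-Blackfan anaemia, a list not taken as complete, 0 passed and 6 were positive, with a median of 0.11 and of -0.08 after rescaling. Beside these lists, 47.1% of tested loci were positive, 15.0% above both controls and 16.9% below. The median was 0.20 over the 49 large subunit genes and 0.06 over the 31 small subunit genes. That difference between subunits was not tested.

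The libraries of a group differed from each other by as much as the groups did. Against its own mean over the 4 libraries, the median gene of the family stood at -0.17 in control A, 0.04 in control B, 0.14 in knockdown A and 0.02 in knockdown B (log2 scale), while the medians of all tested loci lay between -0.03 and 0.03. Control A was the lowest of the 4 libraries for 49 of the 80 genes (61.3%) against 26.7% of tested loci. It was lower than control B for 61 of the 80, against 48.3% of tested loci. Knockdown A was the highest for 41 genes (51.25%) against 33.2% of tested loci, and the lowest for 16 (20%) against 38.6%. The median difference of the family was 0.35 between knockdown A and control A and -0.02 between knockdown B and control B. All 4 knockdown and control pairings share libraries, so these values are not independent.

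**Figure D4:**
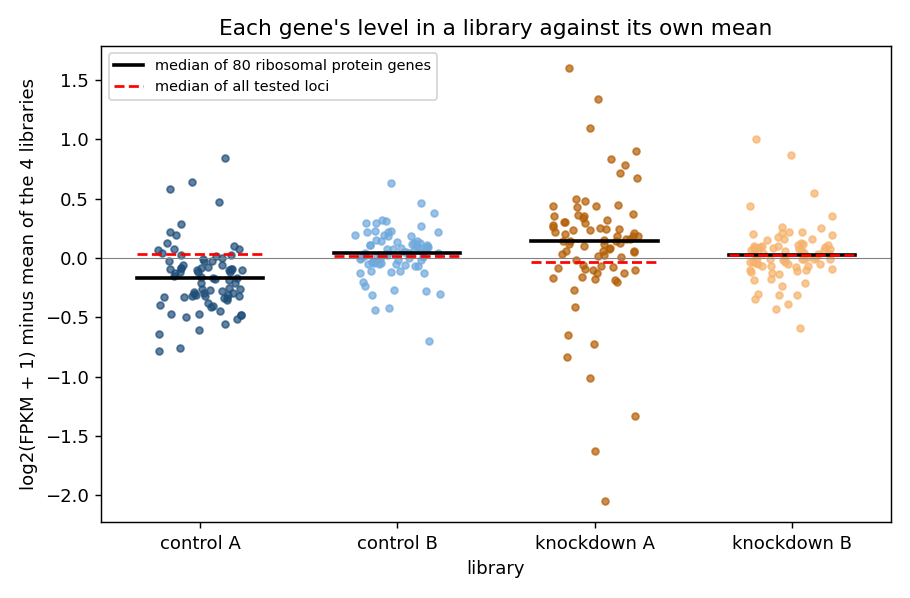
Log2(FPKM + 1) of each of the 80 genes in a library minus its own mean over the 4 libraries, with the family's median as a solid bar and the median of all tested loci as a dashed bar. The family's median is -0.17 in control A and 0.14 in knockdown A, further from 0 than in the other libraries of each group, and the widest spread is in knockdown A.

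Short transcripts were low in control A outside the family too. Among other coding genes with transcripts of 300 to under 600, 600 to under 900 and 900 to under 1300 bases, the median of control A minus control B was -0.13, -0.14 and -0.11, and it was 0.07 for those of 3000 bases or more. The family's medians in the same 3 length classes were -0.20, -0.22 and -0.22. The median log2 fold change of other coding genes in these classes was 0.02, -0.01 and 0.02, and that of the family 0.14, 0.23 and 0.08. The part of transcript length in the family's values was not tested.

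The spread between replicates depended on the estimated number of fragments behind a gene. Among 25 genes with under 100 estimated fragments in at least 1 library, the SD of the log2 difference between knockdown A and knockdown B was 1.23, and among the 54 with at least 100 in every library it was 0.354. For control A and control B these SDs were 0.469 and 0.221. Knockdown A and B differed at least 2-fold in 10 genes (12.5%), against 21.7% of tested loci, and 8 of the 10 had under 100 estimated fragments in a library. The exceptions were Rpl28 and Rpl38. The controls differed that much in 1 gene (1.25%), against 7.2% of tested loci. The 54 better measured genes had a median log2 fold change of 0.10, with 11 above and 3 below both controls, against 15.0% and 16.9% of tested loci.

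**Figure D5:**
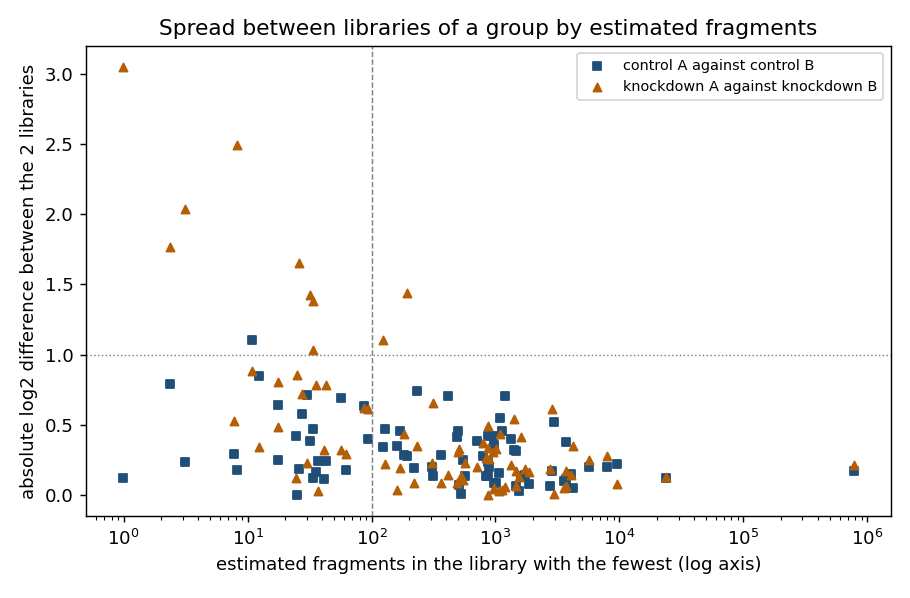
Absolute log2 difference between the 2 libraries of a group for 79 genes, against the estimated fragments in the library with the fewest (log axis), with lines at 100 fragments and at a 2-fold difference. To the left of 100 fragments the knockdown pair spreads widest for Rpl10l, at -3.05 for knockdown A minus B, and to the right only Rpl28 and Rpl38 pass 2-fold.

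The starts of the genes were examined for a short pyrimidine motif, which does not mark the whole pyrimidine tract. In RefSeq promoter windows of the GRCm38.p6 assembly, matched for 60 of the 80 genes, the motif CTTTC occurred on the gene's strand within 15 bases of the annotated start in 17 (28.3%). It occurred there in 4.25% of 9239 tested genes and 4.76% of all 27025 windows. The 5 starts below show it, each as 10 bases before and 20 bases from the annotated start of the first exon, 5′ to 3′ on the gene's strand, with the motif in capitals.
Rplp2: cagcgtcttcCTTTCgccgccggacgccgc
Rpl38: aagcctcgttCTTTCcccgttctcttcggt
Rpl28: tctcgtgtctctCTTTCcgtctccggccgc
Rpl15: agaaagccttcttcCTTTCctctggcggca
Rps10: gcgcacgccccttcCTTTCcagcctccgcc

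These windows lie at chr7:141447641-141447670 (plus strand), chr11:114668570-114668599 (plus), chr7:4792955-4792984 (plus), chr14:18270967-18270996 (minus) and chr17:27635225-27635254 (minus). The motif began at the annotated start itself in Rplp2 and Rpl38, and in both genes pyrimidines also stand directly before it. On both strands CTTTC was found in 30% of the family's windows and 7.59% of tested genes. The 17 genes with the motif had a median log2 fold change of 0.14 and the 43 without it 0.12. Over the whole 300 bases and both strands, CGGAAG, the core bound by ETS factors such as GABPA, occurred in 41 of the 60 (68.3%), against 36.8% of tested genes and 18.8% of all windows. AAGATGGC, bound by YY1, occurred in 5 (8.33% against 5.62% of tested genes), and TATAAA, the TATA box, in 7 (11.7% against 8.33%). No motif of these 4 contains another, and a match describes the letters only.

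Genes that work with the ribosomal proteins gave 0 calls as well. For the counts of this and the following lists, the shares of tested loci were 47.1% positive, 15.0% above both controls and 16.9% below. Of 8 related genes named outside the rule (6 that encode ribosomal proteins or their paralogs, and the assembly factors Rpl7l1 and Rsl24d1) 0 passed, 7 had positive estimates and 3 lay above both controls (Rpl36al, Rpl7l1 and Fau). Rpl36al, the copy of Rpl36a, measured 122 and 182 FPKM in the controls and 262 and 195 FPKM in the knockdown libraries (log2 fold change 0.60, standard error 0.29). Fau, whose product is split into a ubiquitin-like protein and Rps30, measured 44.0 and 45.7 against 51.4 and 57.7 FPKM (0.28, standard error 0.23). Both were above both controls in the knockdown libraries. The negative estimate was that of Rps3a1, a small subunit protein, at 212 and 274 against 148 and 246 FPKM (-0.33, standard error 0.31), with overlapping groups.

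Of 16 tested genes among 17 listed for other terminal oligopyrimidine mRNAs, mostly translation factors, 0 passed and 10 were positive, with 1 above and 2 below both controls. Btf3, a subunit of the nascent chain complex, measured 240 and 452 FPKM in the controls and 565 and 380 FPKM in the knockdown libraries, with overlapping groups (0.49, standard error 0.37). Eif3f, a subunit of initiation factor eIF3, measured 121 and 113 against 67.8 and 103 FPKM, below both controls in both (-0.49, standard error 0.27). Of 26 ribosome assembly factors 0 passed, 16 were positive, 6 were above and 1 was below. Of tested loci 47.1% were positive, 15.0% above and 16.9% below. Mrto4, which assembles the stalk, measured 56.8 and 67.9 against 102 and 79.6 FPKM (0.53, standard error 0.25), and Emg1, a methyltransferase of small subunit rRNA, 100.05 and 182 against 197 and 195 FPKM (0.53, standard error 0.32).

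Of 9 genes of RNA polymerase I and its factors, which transcribe ribosomal RNA, 0 passed, 7 were positive, 1 was above and 2 were below. Taf1c, a subunit of the selectivity factor, measured 12.0 and 8.36 FPKM in the controls and 0.495 and 7.54 FPKM in the knockdown libraries (-1.63, standard error 0.82), with knockdown A far below the others. Polr1b, the second largest subunit, measured 28.0 and 50.9 against 59.8 and 47.2 FPKM, with overlapping groups (0.48, standard error 0.34). Of 17 regulators of growth and of ribosome synthesis 0 passed, 9 were positive, 4 were above and 2 below. For both lists the shares of tested loci were 47.1% positive, 15.0% above and 16.9% below. Eif4ebp1, the translation repressor that mTOR phosphorylates, measured 364 and 307 against 258 and 250 FPKM (-0.40, standard error 0.21), and Trp53, the tumour suppressor p53, 160 and 131 against 84.0 and 136 FPKM (-0.43, standard error 0.29). The knockdown libraries were both below the controls for Eif4ebp1 and overlapped them for Trp53. Rps6kb2, an S6 kinase, measured 8.94 and 8.61 against 19.9 and 7.29 FPKM (0.43, standard error 0.49), with overlapping groups. Max, the partner of Myc, measured 28.9 and 34.4 against 46.2 and 39.2 FPKM (0.42, standard error 0.25), above both controls in both.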

How the data were processed

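The authors deposited FPKM per locus and library, made with Cufflinks and Cuffdiff on the mm9 build per the submitters' processing notes. The sources used here give no version, aligner, use of strand or handling of fragments that match several places. Symbols came from RefSeq tables of GRCm38.p6, in which 23237 of 23697 loci had a single symbol, 189 had several and 271 had none. The ribosomal protein genes, the gene lists and the tests were chosen with earlier results of these data known.

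The 11784 loci that averaged 1 FPKM or more entered a test on log2(FPKM + 1), which understates changes of low genes, with limma 3.58.1 in R 4.3.3 (group alone, eBayes with trend, two-sided, Benjamini-Hochberg over all tested loci, threshold 0.05). An exact permutation test of 2 against 2 libraries cannot give a two-sided p under 0.333, so none was used. The fit was also run on simulated fragments, with the same spread setting for all loci and libraries. The real libraries differed in spread, so that run is no check of the test on these data. Depth was estimated from the steps of low values, with 200 bases subtracted from each transcript length. Low values came within 0.15 of a whole fragment count in 80.9% to 84.1% of cases. These estimates carry no counting interval.

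Coding sequences and 50-base stretches were compared with GENCODE transcripts using BLAST 2.17.0 and Python 3.11.15 (numpy 2.4.6, pandas 2.3.3, matplotlib 3.10.9). Named with values are the 5 genes at each end of the log2 fold change and of the level, the 5 smallest p, the stalk, the 5S particle, the paralog pairs, Rps6, Rpsa, Rps27a, Rps19, Rpl24 and Rpl38, and up to 4 genes of each list by largest change. Rpl15, Rps10, Gapdh, Actb and Fau were added after their values were seen. Alternatives were pseudocounts of 0.1 and 0.01, no filter, a filter at 5 FPKM, upper-quartile and quantile normalization, rescaling to an equal sum, 2 other eBayes settings, the replicate letter as a block and each library left out. Rescaling without Rpl13a and keeping only genes with at least 100 estimated fragments were added after seeing the data. A small subunit gene is not reported here by name.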

Additional observations from a re-analysis of the deposited data

How the results depend on the processing

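No ribosomal protein gene was called by limma under any alternative run; the smallest adjusted p was 0.051, without knockdown B, where 14 genes had an unadjusted p under 0.05. The number of tested loci called, 4, was 1 without a filter, 2 with eBayes without trend, 7 with the replicate block and 0 to 134 with a library left out. Whether the letters pair the samples is not given. Deviations of same-lettered libraries correlated at -0.07 over all tested loci and -0.22 over the family. With so few libraries a group, these values cannot settle it. The replicate block called 0 of the family's genes, as did every other setting. The family's median of 0.13 was -0.052 after rescaling to an equal sum and 0.028 after rescaling without Rpl13a. With a library left out it was 0.00029 to 0.24. The ratio of sums was 0.942 after rescaling to an equal sum and 0.998 after rescaling without Rpl13a. Genes above and below both controls, 18 and 4, numbered 5 and 15 after rescaling (6.37% and 29.7% of tested loci), 7 and 7 after rescaling without Rpl13a (9.05% and 24.3% of tested loci), and 20 to 53 and 8 to 19 with a library left out (27.1% to 36.8% and 29.5% to 42.3% of tested loci). Among the 54 genes with at least 100 estimated fragments, 11 were above, against 15.0% of all tested loci. The causes were not tested.

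Directions of named genes turned as follows. Under quantile normalization the log2 fold change was -0.23 for Rpl13a, 0.028 for Rpl4 and -0.0031 for Rpl8. After rescaling to an equal sum it was -0.0096 for Rpl10, -0.15 for Rpl22, -0.13 for Rpl3, -0.065 for Rpl36a, -0.058 for Rpl39l, -0.15 for Rpl8, -0.12 for Rplp0, -0.10 for Rplp1 and -0.047 for Rplp2. Rescaling without Rpl13a gave -0.070 for Rpl22, -0.046 for Rpl3, -0.063 for Rpl8, -0.042 for Rplp0 and -0.021 for Rplp1. With a library left out, the range was -0.22 to 0.56 for Rpl10, -2.56 to 0.48 for Rpl10l, -0.47 to 0.95 for Rpl11, -0.087 to 1.02 for Rpl17, -0.044 to 0.12 for Rpl22, -0.069 to 0.19 for Rpl3, -0.24 to 0.48 for Rpl36a, -0.035 to 0.28 for Rpl39l and -0.13 to 0.090 for Rpl4. It was -0.020 to 0.50 for Rpl7, -0.095 to 0.18 for Rpl8, -0.030 to 0.32 for Rplp2, -0.15 to 0.10 for Rps19, -2.01 to 0.49 for Rps23, -0.52 to 0.089 for Rps26, -0.51 to 0.017 for Rps27 and -0.091 to 0.61 for Rps27l.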
